A study of Mus musculus with 4 samples.

Results

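The heat shock response genes described here are 10 of the 32227 genes listed in the count matrices: Dnajb1, Dnaja1, Hspa1a, Hspa1b, Hspa8, Hsph1, Hsp90aa1, Hspb1, Hspe1 and Bag3. They were found by gene symbol, and they were picked with their β-cell levels in these libraries already known. The β-cell values are therefore a description of the genes and carry no test. Their values in other cell classes come from the same libraries.

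Dissociated islets of Myt3IM/IM and control mice were studied by single-cell RNA-Seq in droplets, in which each captured transcript carries a unique molecular identifier (UMI). Myt3 is a zinc finger transcription factor of islet cells, and the mutant mice carry a 12 bp insertion in both copies of the gene. It lies within an upstream reading frame that overlaps the main one, and was made to alter translation of the protein. By the study, it also adds residues to the protein made from another transcript form, in a region that is not conserved. The sample labels name 2 mutant and 2 control libraries. The matrices of mutant 1, mutant 2 and control 2 were analysed. Expression in control 1 was not analysed here. By the study's methods each library pooled islets of males and females, so a library and not an animal is the replicate. The sex of single cells is not given. The study's results state a focus on males from the high-fat diet work on, so the sexes pooled are uncertain. The labels state adult mice on a normal diet and the PIPseq platform, whereas the study's methods state mice on a high-fat diet and inDrop-Seq. The diet is therefore uncertain, but the sources give 1 diet for mutants and controls alike.

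Barcodes needed at least 500 UMIs, at least 100 genes and at most 10% of UMIs from mitochondrial genes. On these limits 2940, 2040 and 2283 cells were kept in mutant 1, mutant 2 and control 2, with a median of 2427, 3852 and 14051 UMIs. No barcode was shared between libraries. The control library was thus deeper, it carries another batch label than both mutant libraries, and it is the only control, so that genotype, batch and depth cannot be told apart in any ratio below. The gap between mutant 1 and mutant 2 is the only measure of replicate spread, and genotypes were compared without any test. β cells were those with an insulin share of at least 15% of UMIs and with under 5% Gcg, 1% Sst and 5% Ppy. α cells had at least 5% Gcg, and δ cells at least 1% Sst and under 5% Gcg, both with under 15% insulin. Non-endocrine cells lay under all of these hormone limits and were chosen by UMIs of endothelial, stromal, leukocyte or duct cell markers. These classes are ranges of a hormone share: 56, 39 and 39 cells of the 3 libraries lay within 2.5 percentage points of the insulin limit. There were 2263, 1545 and 2027 β cells, 311, 233 and 38 α cells, 109, 88 and 43 δ cells, and 59, 54 and 70 non-endocrine cells. Cells called by their Ppy share, and 146, 86 and 86 cells that fell in no class, were left out. Markers other than hormones were found at some level in every class, so the classes were compared by the summed level of each list, in non-hormone CPM, which are UMIs scaled to the UMIs of all genes but hormone and mitochondrial ones. In β cells the 7 β-cell markers summed to 16230.1, 15525 and 7846 in mutant 1, mutant 2 and control 2, against 1457, 1707 and 5309.8 for the 7 α-cell markers. In α cells the α-cell markers summed to 12511, 16040.5 and 16575, against 2311, 2244 and 1514 for β-cell markers. In δ cells the 5 δ-cell markers summed to 897, 1061 and 2129, against 1992, 2343 and 1096 for β-cell markers, so in the mutant libraries the cells called δ here by their Sst share held more UMIs of β-cell than of δ-cell markers. Doublets were not called.

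Heat shock proteins are chaperones that bind unfolded or partly folded proteins. HSP70 proteins hold a client in a cycle driven by ATP. J-domain proteins (the HSP40 family) deliver clients and start ATP hydrolysis, and nucleotide exchange factors release the client. When unfolded protein accumulates, HSP70 and HSP90 are drawn away from the transcription factor HSF1, which then binds heat shock elements in the promoters of these genes and raises their transcription within minutes. Enzymatic dissociation of a tissue into single cells is a known trigger of the same response. In β cells, which make large amounts of secreted protein, the chaperones described here act in the cytosol, nucleus and mitochondria, while the endoplasmic reticulum has its own set.

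A heat shock element is built of GAA units in alternating orientation, each separated from the next by a pair of free bases. Promoters were read from the RefSeq annotation of GRCm38.p6, as 300 bases from 250 before to 50 after each annotated start. An element of 2 units was searched for as GAANNTTC or TTCNNGAA, and an element of 3 units as GAANNTTC followed by NNGAA or as TTCNNGAA followed by NNTTC. The 2-unit motifs read the same on both strands, the 3-unit motifs are each other's reverse complement, and every 3-unit match also holds 2-unit matches. Of 32851 promoter windows of mouse genes, 15.1% held a 2-unit element and 0.603% held a 3-unit element. Counted by gene, with a match in any of its windows, the shares were 17.0% and 0.662% of 27025 genes. A window was listed for 8 of the 10 genes. At least 1 window of 7 of these 8 held a 2-unit element, and Hsph1 and Hspe1 held a 3-unit element. Of 57 other heat shock and chaperone genes with a window, 16 held 2 units and 3 held 3 units. The elements are shown with up to 5 bases on either side, read on the strand of the gene, with the element in capitals. Those of Hspe1, Dnaja1, Hspb1, Hspa1a and Hspa1b and the 2-unit element of Hsph1 lie before the annotated start. That of Bag3 and the 3-unit element of Hsph1 lie just after it.
Hspe1, chr1:55088054-55088081, plus strand: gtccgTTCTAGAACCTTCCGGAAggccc
Hsph1, chr5:149636283-149636305, minus strand: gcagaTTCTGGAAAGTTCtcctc
Hsph1, chr5:149636357-149636374, minus strand: aatctTTCTCGAAggctc
Hspa1a, chr17:34972248-34972265, minus strand: tgctgGAAGATTCctggc
Hspa1b, chr17:34959330-34959347, minus strand: tgctgGAAGATTCctggc
Dnaja1, chr4:40722339-40722356, plus strand: ctctaGAAAATTCtacga
Hspb1, chr5:135887797-135887814, plus strand: caagaGAAGTTTCcagat
Hspb1, chr5:135887817-135887834, plus strand: gggcaGAACCTTCctggc
Bag3, chr7:128523620-128523632, plus strand: gaccaGAAGTTTC

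Hspe1 carried 4 units in a row. Hsph1 had its 2 elements in both listed windows, and Dnaja1 had its element in 1 of 3. Dnajb1, the gene with the largest β-cell ratio below, held none of these letters in either of its windows, and no match says only that these exact letters are absent from them. The bases before its first listed start and those before the starts of Hspa1a and Hspa1b are shown because Dnajb1 had the largest difference between libraries, and because the other pair are near copies with opposite β-cell ratios.
Dnajb1, chr8:83607925-83608174, plus strand: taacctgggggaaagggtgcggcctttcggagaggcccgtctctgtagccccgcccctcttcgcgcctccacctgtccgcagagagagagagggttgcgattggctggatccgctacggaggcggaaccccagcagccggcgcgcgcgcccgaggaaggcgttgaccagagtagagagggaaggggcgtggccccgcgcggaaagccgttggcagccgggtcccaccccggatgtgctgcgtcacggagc
Hspa1a, chr17:34972157-34972406, minus strand: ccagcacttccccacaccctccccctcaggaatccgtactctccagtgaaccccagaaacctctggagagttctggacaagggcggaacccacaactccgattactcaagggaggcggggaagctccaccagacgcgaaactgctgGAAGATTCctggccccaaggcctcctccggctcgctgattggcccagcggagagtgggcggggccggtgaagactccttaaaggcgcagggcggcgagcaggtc
Hspa1b, chr17:34959239-34959488, minus strand: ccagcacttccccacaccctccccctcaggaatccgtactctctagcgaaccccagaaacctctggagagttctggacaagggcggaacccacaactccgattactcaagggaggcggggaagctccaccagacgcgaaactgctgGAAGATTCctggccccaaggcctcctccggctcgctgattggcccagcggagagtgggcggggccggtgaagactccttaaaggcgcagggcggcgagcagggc

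The promoter windows of Hspa1a and Hspa1b had 296 of 300 bases in common, and 3 of the 4 that differed lay before the start. Matches of this kind are a description of the letters, and no binding of HSF1 was measured.

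To compare the libraries, UMIs of all β cells of a library were summed and scaled to CPM, a UMI count relative to library size, with edgeR's TMM factors, and the log2 ratio of each mutant library to control 2 was taken with a prior count of 1. A gene was called higher or lower where the log2 ratio passed 0.5 in the same direction in both mutant libraries, among genes that averaged 20 CPM or more. Of 4733 such genes, 18.8% were higher and 26.6% were lower. Of the 10 heat shock genes, 9 reached the minimum: 6 were higher, 2 were lower and Dnaja1 was neither. As these ratios were known when the genes were picked, nothing is read from this count. The median log2 ratio of the 10 genes was 0.64 in mutant 1 and 0.75 in mutant 2, beside -0.07 and -0.08 for all genes. Without Dnajb1 it was 0.59 and 0.71.

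Dnajb1, the inducible J-domain protein that delivers clients to HSP70, stood apart from the others. Its level in β cells was 2382 CPM in mutant 1, 2154 CPM in mutant 2 and 238 CPM in control 2, from 18787, 18164 and 6735 UMIs. Both mutant libraries lay far above the control, by log2 ratios of 3.32 and 3.18, the latter 9.05-fold, and the gap between them was 0.15 on the log2 scale. Among all UMIs of the 10 genes, Dnajb1 made up 51.5% and 47.1% in the mutant libraries and 13.8% in control 2. Dnaja1, a J-domain partner of HSP70 that is made in most cells without stress, had 89.0, 114 and 76.6 CPM in mutant 1, mutant 2 and control 2. Its log2 ratios of 0.22 and 0.57 straddled the limit.

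The HSP70 genes moved in different directions. Hspa1a, a stress-inducible HSP70, had 651 CPM in mutant 1, 777 CPM in mutant 2 and 234 CPM in control 2. Both mutant libraries were above the control, with log2 ratios of 1.47 and 1.73. Hspa1b, which encodes a nearly identical protein from the neighbouring gene, had 14.8, 19.8 and 31.03 CPM in the same order. It was lower in both mutant libraries, with log2 ratios of -1.06 and -0.65. Since the transcripts of Hspa1a and Hspa1b are nearly identical, the split of UMIs between them is uncertain, and their sum was 666, 797 and 265 CPM, with log2 ratios of 1.33 and 1.59. Hspa8, the constitutive HSP70 that every cell uses for housekeeping, had 215, 269 and 471 CPM. Its level was lower in both mutant libraries, with log2 ratios of -1.13 and -0.81, and its share of the UMIs of the 10 genes was 4.64% and 5.89% against 27.4% in control 2.

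Of the remaining genes, Hsph1, Bag3, Hsp90aa1 and Hspe1 were higher, by less than Dnajb1. This does not hold for exchange factors of HSP70 as a class, since Hspa4 and Bag1, described below, were not called. Hsph1, an HSP110 protein that acts as nucleotide exchange factor, had 524, 487 and 202 CPM in mutant 1, mutant 2 and control 2. The mutant libraries differed little from each other and lay above the control, with log2 ratios of 1.38 and 1.27. Bag3, an exchange factor that directs clients to autophagy, had 36.6, 39.6 and 24.2 CPM, with log2 ratios of 0.59 and 0.71. Hsp90aa1, the inducible cytosolic HSP90, had 552, 532 and 344 CPM. Its log2 ratios of 0.68 and 0.63 lay close above the limit of 0.5. Hspe1, the mitochondrial co-chaperonin HSP10, had 151, 162 and 93.1 CPM, with log2 ratios of 0.70 and 0.80. Hspe1, Hspa8 and Hsp90aa1 have near-identical processed copies in the genome, and how reads shared with them were counted is not given in the sources used here. Hspb1, a small heat shock protein, was scarce in β cells, with 72, 127 and 239 UMIs, and at 9.13, 15.1 and 8.45 CPM it did not reach the minimum. The plot of levels by library shows that the mutant symbols sit together on one side of the control for all genes but Dnaja1 and Hspb1, where mutant 1 sits near the control.

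**Figure D1:**
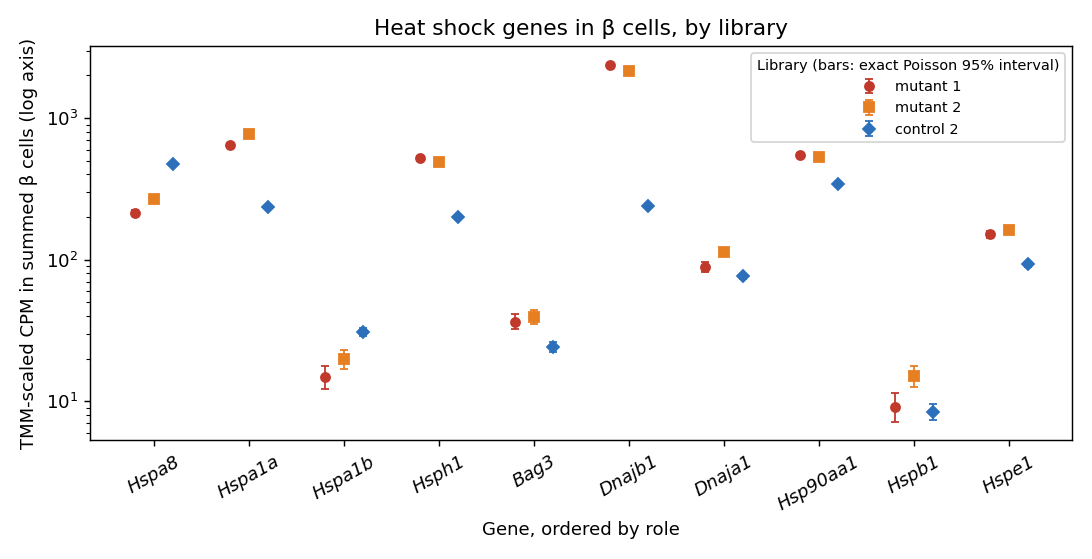
Level of each heat shock gene in summed β cells of mutant 1, mutant 2 and control 2, as TMM-scaled CPM on a log axis, with exact Poisson 95% intervals that cover counting error only. Dnajb1 is at 2382 and 2154 CPM in the mutant libraries and at 238 CPM in control 2, while Hspa8 and Hspa1b are highest in control 2.

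Other values of the β cells moved with these ratios. Their median depth was 2747, 4468 and 15956 UMIs in mutant 1, mutant 2 and control 2. Hormone transcripts made up 50.2%, 51.8% and 61.4% of UMIs, and Malat1, a nuclear RNA, had 843, 1189 and 3891 non-hormone CPM. The marker sums given above, which leave out hormones, differed as well: in β cells of control 2 β-cell markers were lower and α-cell markers higher than in either mutant library. The hormones went the other way. Insulin made up 41.2%, 43.8% and 57.1% of β-cell UMIs in mutant 1, mutant 2 and control 2, and Gcg 0.277%, 0.321% and 0.0174%. The marker sums therefore do not rank the libraries by β-cell or α-cell character. The part of each of these in the ratios was not tested, but depth could be matched. In β cells of like depth, levels were taken as non-hormone CPM in 3 bins present in all libraries (bins of fewer than 20 cells were left out). The bin of 8000 to 16000 UMIs held 70, 204 and 467 cells of mutant 1, mutant 2 and control 2. The 3 bins left out 752 and 333 shallower cells of mutant 1 and mutant 2, and 1007 deeper cells of control 2. The log2 ratio of Dnajb1 lay between 2.88 and 3.15 over the 6 ratios of these bins. That of Hspa1a lay between 1.38 and 2.0, that of Hsph1 between 0.94 and 1.20, and that of Hspe1 between 0.72 and 1.29. The ratios of Hsp90aa1 ran from 0.49 to 1.01 and those of Bag3 from 0.41 to 0.88. Hsp90aa1 in mutant 2 and Bag3 in mutant 1 fell under 0.5 in the bin of 8000 to 16000 UMIs. Hspa8 was below control 2 in each bin, by -0.89 to -0.31, but in mutant 2 it did not pass -0.5 in any of them. At like depth and on this scale it thus did not meet the limit. The scale has a part in this: over all β cells, the mean ratio of Hspa8 was -0.97 with TMM and -0.86 with non-hormone CPM. Hspa1b ran from -1.07 to 0.12, so at like depth its direction was not stable.

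Within a library, Dnajb1 was higher in shallower β cells. It ran from 6836 non-hormone CPM in mutant 1 cells of 500 to 2000 UMIs to 4526 in those of 8000 to 16000 UMIs. In mutant 2 the same bins had 7461 and 4257. Control 2 had 686 in cells of 2000 to 4000 UMIs and 479.6 in those above 16000. Hspa8 in control 2 went the other way, from 811 to 1057, but showed no such course in the mutant libraries, which had 551, 461, 491 and 501 in the 4 bins of mutant 1 between 500 and 16000 UMIs and 667, 653, 598 and 666 in the same bins of mutant 2. The hormone share rose with depth in the same bins, from 42.8% to 54.4% in mutant 1, from 39.1% to 55.1% in mutant 2 and from 48.9% to 63.4% in control 2.

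**Figure D2:**
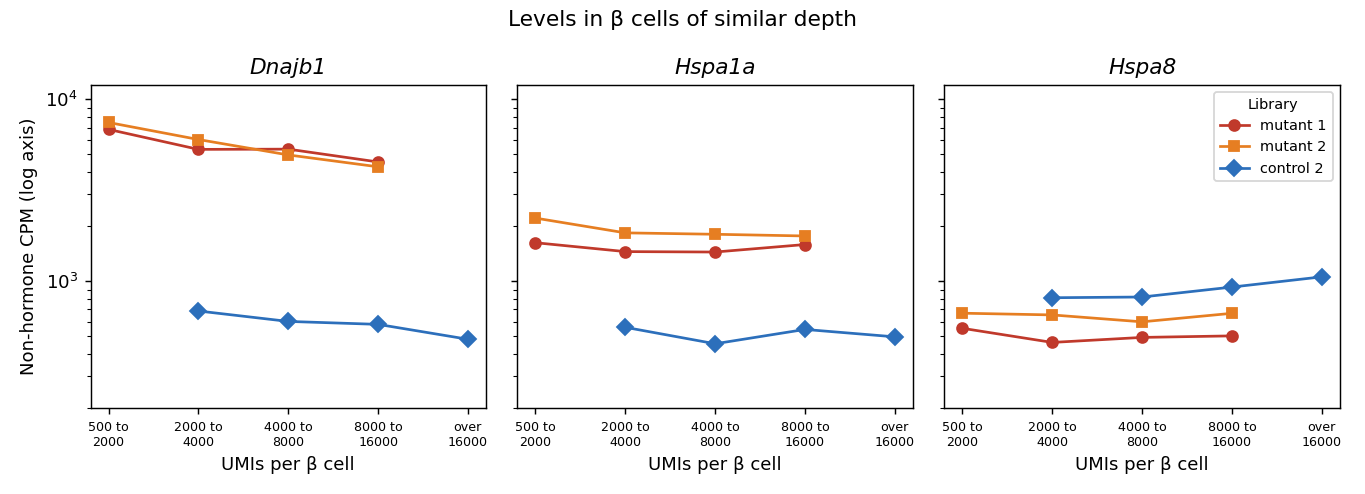
Non-hormone CPM of Dnajb1, Hspa1a and Hspa8, on a log axis, in β cells grouped by their UMI count, for mutant 1, mutant 2 and control 2; points are sums over the cells of a bin. In every bin shared by the 3 libraries, both mutant libraries are above control 2 for Dnajb1 and Hspa1a and below it for Hspa8.

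The difference in Dnajb1 lay across β cells and not in a few of them. To compare single cells, each β cell was thinned to 1000 UMIs. This left out 349 shallower cells of mutant 1 and 152 of mutant 2, and kept 1914, 1393 and 2027 cells. A Dnajb1 UMI was found in 85.0%, 83.6% and 18.5% of thinned β cells of mutant 1, mutant 2 and control 2. Without thinning the shares were 95.9%, 97.4% and 78.3%, at the depths given above. The thinned cells held a mean of 2.73, 2.67 and 0.22 Dnajb1 UMIs. At least 3 Dnajb1 UMIs were found in 863 of 1914, 599 of 1393 and 10 of 2027 cells. Hspa1a was found in 47.0%, 55.1% and 18.0% of thinned cells, Hsph1 in 42.3%, 40.0% and 15.3%, and Hsp90aa1 in 44.1%, 44.2% and 26.3%. For Hspa8 the shares were 20.1%, 25.9% and 30.1%, the reverse order of Dnajb1. A UMI of any of the 10 genes was found in 96.9%, 97.6% and 75.1% of thinned cells. No cell class lacked these genes, so a share that free RNA alone would give could not be measured for them.

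**Figure D3:**
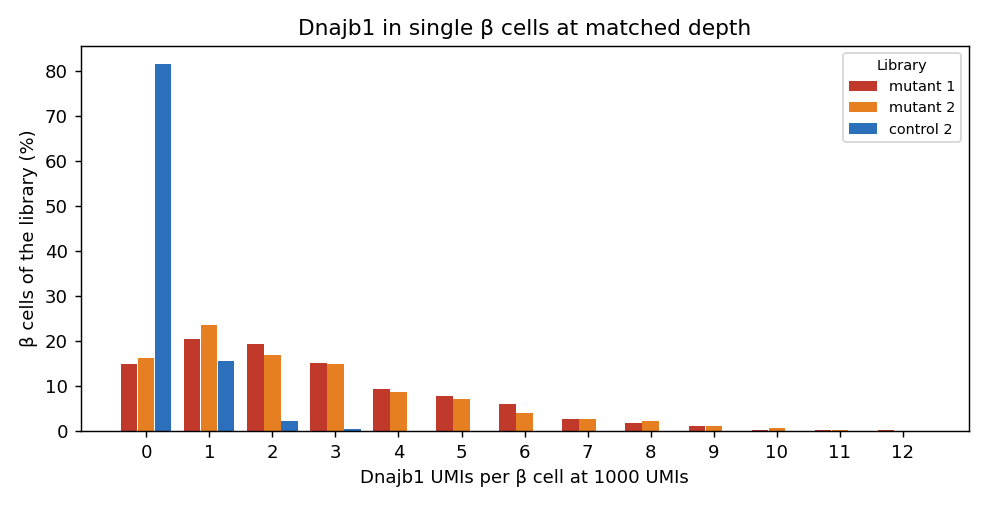
Share of β cells, in percent, by the number of Dnajb1 UMIs per cell after each cell was thinned to 1000 UMIs, for mutant 1 (1914 cells), mutant 2 (1393 cells) and control 2 (2027 cells). Most control cells hold 0 Dnajb1 UMIs, whereas mutant cells spread from 0 to more than 10; 4 cells of mutant 1 and 9 of mutant 2 lie beyond 12 and are not drawn.

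The same ratios were taken in cells other than β cells, with a minimum of 50 CPM because fewer UMIs were summed. In α cells, 20.3% of 2916 genes were higher and 15.5% were lower. Of 9 heat shock genes that reached the minimum, 6 were higher, the same 6 as in β cells, and Hspa1b was lower. The share of all genes that were higher in both classes was not counted. Dnajb1 had 3809.7, 3130.5 and 861 CPM in mutant 1, mutant 2 and control 2, with log2 ratios of 2.14 and 1.86. Hsp90aa1 had log2 ratios of 1.54 and 1.33, Hsph1 of 1.21 and 1.22, Hspa1a of 0.92 and 1.09, and Hspe1 of 0.63 and 0.73. Bag3 had 113, 99.9 and 23.7 CPM, but its control value rested on 6 UMIs, with an exact Poisson interval from 8.70 to 51.6 CPM. Hspa8 was at 533, 710 and 660 CPM, with log2 ratios of -0.31 and 0.11, so α cells did not share its lower level of β cells beyond the limit; the difference between the classes was not tested. The control level of α cells came from 38 cells.

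In δ cells, 18.5% of 3714 genes were higher and 15.4% were lower. All 10 heat shock genes reached the minimum, of which 3 were higher and 2 were lower. Dnajb1 had 2899, 2741 and 1024 CPM in mutant 1, mutant 2 and control 2, with log2 ratios of 1.497 and 1.417. The others that were higher were Hsp90aa1, with log2 ratios of 0.74 and 0.67, and Hspe1, with 0.70 and 0.75. Hspa1a had 1249, 1444 and 1108 CPM, so that the mutant libraries were above the control by only 0.17 and 0.38 on the log2 scale. Hspa8 was lower, with -0.98 and -0.80, and Hspa1b was lower on 11, 17 and 40 UMIs. The median log2 ratio of the 10 genes was 0.11 and 0.36, beside 0.06 and 0.04 for all genes.

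The non-endocrine cells were mostly endothelial, with 36, 32 and 36 such cells in the 3 libraries. In them, 18.0% of 4052 genes were higher and 12.2% were lower. Of the 10 heat shock genes, 5 were higher and 0 were lower. Dnajb1 had 1616, 1335 and 205 CPM in mutant 1, mutant 2 and control 2, from 152, 165 and 100 UMIs, and log2 ratios of 2.95 and 2.68. Hspa1a had 1191, 1197 and 351 CPM, with ratios of 1.75 and 1.76. Hsph1 followed with 1.70 and 1.99, Hsp90aa1 with 1.29 and 1.37, and Hspe1 with 0.84 and 1.36, the last on 11, 21 and 31 UMIs. Over the 4 classes, Dnajb1, Hsp90aa1 and Hspe1 were higher in each, Hspa1a and Hsph1 in 3, and Hspb1 and Dnaja1 were called in none. The calls of the 4 classes share the same 3 libraries and are not independent of each other. How many of all genes were called alike in several classes was not counted, so nothing is read from this overlap.

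**Figure D4:**
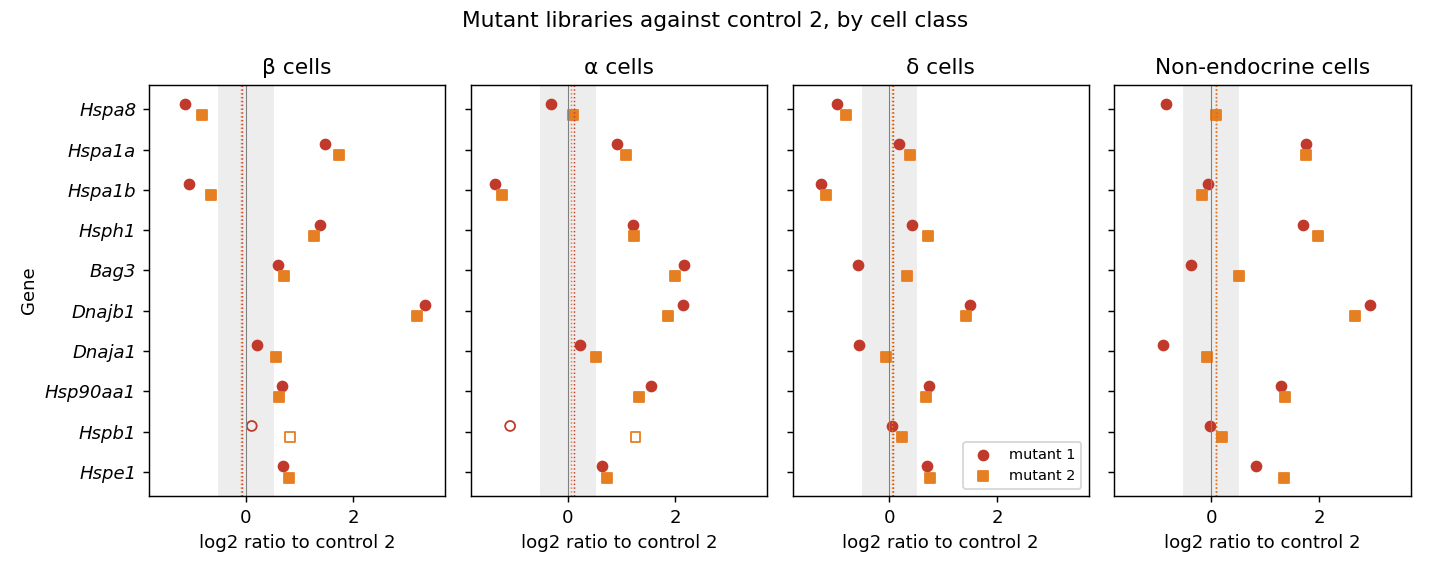
log2 ratio of mutant 1 and mutant 2 to control 2 for each heat shock gene in β, α, δ and non-endocrine cells. Grey marks ratios within 0.5 of 0, dotted lines mark the median of all genes, and open symbols mark genes under the CPM minimum; Dnajb1 lies right of the grey band in all 4 panels, and furthest in β cells.

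Classes were compared within a library on the scale of non-hormone CPM, which leaves out the hormone transcripts that differ between them. In the mutant libraries Dnajb1 was at 5446 and 5087 in β cells, 5185 and 4434 in α cells, 3555 and 3426 in δ cells, and 1710.4 and 1396 in non-endocrine cells. In each mutant library β cells were highest, followed by α, δ and non-endocrine cells. The exact Poisson intervals of β and α cells met in mutant 1, from 5368 to 5524 and from 4976 to 5400.0, and did not in mutant 2, from 5014 to 5162 and from 4256 to 4619. In control 2 the order was another: δ cells had 1306, α cells 1245, β cells 511 and non-endocrine cells 229.9. The α and δ values of control 2 had overlapping exact Poisson intervals, from 1085 to 1422 and from 1143 to 1486, whereas the β interval ran from 499 to 523. The larger ratio of β cells than of α and δ cells thus went with a lower control level and a higher mutant level, and against α cells the control levels were further apart than the mutant levels. α cells of control 2 were shallower than its β cells, with a median of 6531 UMIs, and so were its δ cells with 4987. In the mutant libraries α and δ cells were shallower than β cells as well, with 1745 and 1177 UMIs in mutant 1 and 2864 and 2215 in mutant 2. β cells of control 2 with 4000 to 8000 UMIs had 601 non-hormone CPM of Dnajb1. The part of depth in these differences was not tested. Whether these differences of level between classes exceed what other control animals show was not tested.

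Dnajb1 was also set against the insulin UMIs found in each class. Dnajb1 UMIs per 1000 insulin UMIs were 6.43, 5.48 and 0.336 in β cells of mutant 1, mutant 2 and control 2. In α cells of the same libraries they were 99.7, 88.0 and 22.8, and in δ cells 55.1, 51.6 and 18.2. Non-endocrine cells had 36.02, 29.6 and 5.23. The ratios outside β cells were thus 5.40 to 67.8 times those of β cells. Hspa1a and Hsp90aa1 also had higher ratios outside β cells, by 13.4 to 59.6 times and by 12.1 to 24.7 times. Because the classes were set by their insulin share, a higher ratio outside β cells was largely built in, and nothing is read from it. The part of free RNA in these levels was not tested. Hspb1 showed the widest difference between classes. In β cells it had 20.9, 35.6 and 18.1 non-hormone CPM, in δ cells 159, 183 and 159, and in non-endocrine cells 270.1, 313 and 289.7. Its level in δ and non-endocrine cells was alike in mutant and control libraries within the counting intervals. The α-cell values of 8.92, 57.3 and 22.8 rested on 4, 30 and 4 UMIs, with the mutant libraries on opposite sides of control 2.

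Next, it was asked whether the heat shock genes are found in the same β cells as Dnajb1. Thinned β cells were split by whether they held a Dnajb1 UMI, and the share of cells with a UMI of another gene was compared between them as a log2 ratio. The cells with and without Dnajb1 share a library and the thinned total, but not the hormone share or the depth before thinning, with which Dnajb1 moved. In sparse counts of this kind the ratios are noisy and a weak one is no finding. Of 3716 genes found in at least 2% of thinned β cells of each library, 1.13% had a ratio above 0.5 in all 3 libraries and 0.135% had one below -0.5. Of the other 9 heat shock genes, 6 reached that share of cells, and 0 of them passed 0.5 in all 3 libraries. Beside a share of 1.13%, a count of 0 among 6 genes says little. Hsph1 came nearest. It was found in 44.1% of mutant 1 β cells with a Dnajb1 UMI and in 32.3% of those without, and its log2 ratios were 0.45, 0.44 and 0.67 in mutant 1, mutant 2 and control 2. Hspa1a had ratios of 0.45, 0.40 and 0.43. The median over all genes was 0.05, 0.09 and 0.15, and the 95th percentile was 0.80, 0.94 and 0.76. The percentile takes in genes found in as few as 2% of cells, whose ratios are noisier than those of Hsph1 and Hspa1a. A ratio below it therefore decides nothing about these genes. Ranked by their lowest ratio over the libraries, Hsph1 stood at position 64 and Hspa1a at position 89 of 3716. Hspe1, Hspa8, Dnaja1 and Hsp90aa1 stood lower, and the ratio of Hsp90aa1 in control 2 was -0.08. Bag3, Hspa1b and Hspb1 were too sparse to be counted. Another random draw of the thinned UMIs changed the ratio of Hspa8 in mutant 1 from 0.64 to 0.01 and that of Hsph1 to 0.42, 0.58 and 0.49, so the order of the genes is not firm.

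**Figure D5:**
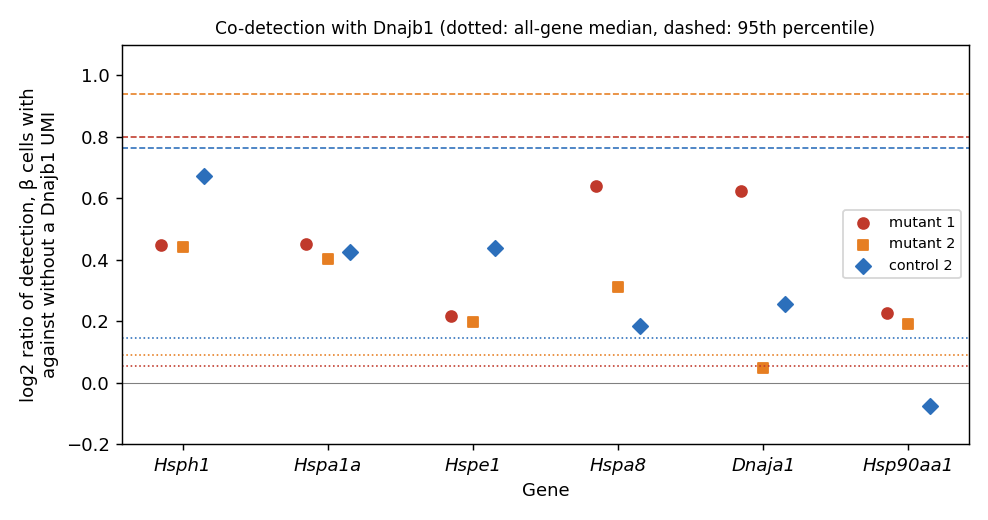
log2 ratio of the share of thinned β cells with a UMI of a gene, among cells with against cells without a Dnajb1 UMI, for the 6 heat shock genes found in at least 2% of cells of each library. Dotted and dashed lines mark the median and the 95th percentile of 3716 genes in the library of that colour; no symbol lies above the dashed line of its library.

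By their lowest ratio over the 3 libraries, the first 10 genes other than the heat shock genes were Ptpn4, Ubald1, Eif2s3y, Taf15, 1110032A03Rik, Ano6, Cc2d1b, Ttc37, Tbc1d17 and Ccnt1, with lowest ratios from 0.80 down to 0.67. They were found in 2.14% to 14.8% of thinned β cells, fewer than hold Hsph1 or Hspa1a, and such a ranking favours sparse genes. Eif2s3y is carried by the Y chromosome. By the study's methods each library holds cells of both sexes, but the sexes pooled are uncertain, as stated above. Ptpn4, a tyrosine phosphatase, was found in 4.28%, 4.31% and 3.35% of thinned β cells of mutant 1, mutant 2 and control 2. Ccnt1 encodes cyclin T1, a part of the kinase that releases paused RNA polymerase II. With hormone and mitochondrial UMIs removed before thinning, the ratios of Hsph1 and Hspa1a were smaller, between 0.21 and 0.29 and between 0.08 and 0.37 over the 3 libraries. The all-gene medians fell as well, to -0.04, -0.03 and 0.02. In mutant 2 the ratios of Dnaja1 and Hspa8 were larger, at 0.62 and 0.45.

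A list of 72 other heat shock and chaperone genes in 8 groups was set beside the 10. In β cells 42 reached 20 CPM, of which 6 were higher and 15 were lower in both mutant libraries, with median log2 ratios of -0.22 and -0.16. The background was 18.8% higher and 26.6% lower. Among 42 genes the counts differ from these shares by few genes, and nothing is read from them. Of the 15 lower genes, 7 belonged to the group of the TRiC chaperonin and prefoldin. Of the 12 partners of HSP70, 5 reached the minimum. St13, which steadies HSP70 bound to its client, was higher, with 186, 176 and 96.5 CPM in mutant 1, mutant 2 and control 2. Hspa13, an HSP70 of the secretory pathway, and Stub1, the ubiquitin ligase that tags clients of HSP70, were lower, with log2 ratios of -1.94 and -1.54 and of -1.57 and -1.19. Hspa4 and Bag1, which are exchange factors, were not called, with -0.11 and -0.21 and with 0.38 and 0.31. Of 9 J-domain proteins of the cytosol, 6 reached the minimum. Dnajb2 was higher, with 0.88 and 0.79, and the rest were not called, Dnajb6 among them with 0.25 and 0.11.

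Of 13 genes of HSP90 and its co-chaperones, 9 reached the minimum. Hsp90ab1, the constitutive cytosolic HSP90, was higher, with 998, 1013 and 629 CPM in mutant 1, mutant 2 and control 2, and Nudc was lower, with log2 ratios of -1.33 and -1.10. Chordc1, whose promoter held a 3-unit element, had 0.18 and 0.25. Of 8 other heat-induced genes, 6 reached the minimum. Zfand2a, a zinc finger gene induced by heat and arsenite, was higher, with 1.07 and 0.70. Ubb, a polyubiquitin gene, and Herpud1, which acts in the degradation of proteins from the endoplasmic reticulum, were lower, with -1.54 and -1.19 and with -1.60 and -1.51. The 4 other small heat shock genes were all under the minimum.

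Hspd1, the mitochondrial chaperonin that works with Hspe1 and shares its promoter region, had log2 ratios of -0.07 and 0.20, against 0.70 and 0.80 for Hspe1. Among the 4 mitochondrial chaperone genes that reached the minimum, Grpel1 was lower and 0 were higher. The TRiC chaperonin, which folds actin and tubulin in the cytosol, and prefoldin, which passes clients to it, had 9 genes above the minimum. Of these, 7 were lower, with Cct7 at -2.07 and -2.03 and Cct2 at -1.67 and -1.31, and Pfdn2 was higher at 1.33 and 1.22. Of the factors and regulators, Hsbp1, which binds HSF1, was lower with -1.17 and -0.77, and Ddx39b was higher with 1.04 and 1.09. Hsf1 itself was under the minimum, on 20, 25 and 148 UMIs.

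Genes of other stress responses were counted for comparison, beside the same β-cell background of 18.8% higher and 26.6% lower. Of 14 chaperones of the endoplasmic reticulum, all reached the minimum, 0 were higher and 12 were lower in β cells, with median log2 ratios of -1.62 and -1.58. The lowest were Sdf2l1, with -3.03 and -2.75, and Pdia6, with -2.999 and -2.676. Of 13 immediate early genes, which are transcribed within minutes of many stimuli, tissue dissociation among them, 12 reached the minimum, 4 were higher and 1 was lower. Fos had 1809, 1796 and 749.8 CPM in mutant 1, mutant 2 and control 2, and Ier2 had log2 ratios of 1.29 and 1.15. Jun was lower, with -0.87 and -0.60. In α cells, where 20.3% of all genes were higher and 15.5% lower, 0 of 12 immediate early genes were higher and 4 were lower. The part of cell preparation in any of these levels was not tested.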

How the data were processed

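Single-cell libraries of islet cells were analysed for 2 mutant and 1 control sample. The study's methods name DropEst for making the count matrices, but the labels give another platform than those methods, as stated above. The deposited files hold raw counts of UMIs for each gene in each cell, not normalized. Per the labels, the build was GRCm39, and Seurat was used. The aligner is not given in the sources used here. Cells were filtered by the limits that the study states, since some deposited barcodes lay outside them. UMIs were summed per library and cell class, and TMM factors of edgeR 4.0.16 were taken in R 4.3.3. A prior count of 1 went into each log2 ratio. DESeq2 1.42.0 size factors were an alternative. Because 1 control library was analysed, there was no model of counts and no test. Exact Poisson and binomial intervals at 95% cover counting error only, and say nothing of animals. Thinning drew 1000 UMIs from each cell without replacement. The ratio step was tested on simulated data with changed and unchanged genes. The heat shock genes and the lists were chosen with earlier results of these data known. Of the other lists, the text names, per group, up to 2 highest and 2 lowest genes past the limit in both mutant libraries, and the 10 genes with the highest lowest ratio of co-detection. Other genes of these lists were named after their values were seen: Hspa4, Bag1, Dnajb6, Chordc1, Hspd1 and Hsf1. Promoter windows are RefSeq's for GRCm38.p6, another build than that of the counts, and were matched by symbol. Python 3.11.15, numpy 2.4.6, scipy 1.17.1, pandas 2.3.3 and matplotlib 3.10.9 were used.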

Additional observations from a re-analysis of the deposited data

How the results depend on the processing

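In β cells 6 heat shock genes were higher, and the count ran from 5 to 7 over the alternatives tried. Their median log2 ratio, 0.65 as the median of the mean ratios, ran from 0.60 to 1.27. It was 1.12 with CPM of all UMIs, 0.77 with CPM without hormone and mitochondrial genes, 1.05 in β cells of 3000 to 6000 UMIs, 1.001 with each cell thinned to 1000 UMIs and 1.27 as a mean over cells; the median of all genes moved by 0.48, 0.06, 0.12, 0.14 and 0.38 in the same order. Relative to all genes it was 0.73 with TMM and 0.71, 0.78, 1.003, 0.94 and 0.96 in these settings; the cause of what is left was not tested. Leaving out mutant 1 or mutant 2 gave 0.64 to 0.75 in β, 0.77 to 1.16 in α, 0.11 to 0.36 in δ and 0.41 to 0.93 in non-endocrine cells. Dnajb1 stayed between 3.08 and 3.72. Hspa1b turned to 0.060 in β cells of 3000 to 6000 UMIs. Hspa8 ran from -1.13 to -0.41, the latter as a mean over cells. The median co-detection ratio with Dnajb1, 0.34, was 0.19 with hormone and mitochondrial UMIs removed, and, in alternatives added after the data were seen, 0.54 for cells with at least 3 Dnajb1 UMIs, of which control 2 had 10, and 0.21 with Hspa1a in place of Dnajb1. The all-gene medians were 0.10 for the first and -0.01, 0.33 and 0.06 for the others. No paired analysis was possible because the analysed groups share only replicate number 2. With 1 control library, no ratio can be set against the spread between controls, and the smaller classes rest on few cells, 38 α and 43 δ cells in control 2.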
